A study of Homo sapiens with 6 samples.

Results

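The keratins described here are 9 genes, KRT7, KRT8, KRT10, KRT18, KRT19, KRT23, KRT80, KRT81 and KRT86, taken by symbol from a table of 19202 genes, and all 9 were found in it. The table also holds 46 other genes with a keratin symbol, 1 of which, KRT20, is set beside the 9 below because of its level. Libraries were made from total RNA of MHCC97H cells, an established human hepatocellular carcinoma line. The control libraries came from sorafenib-sensitive MHCC97H cells and the resistant libraries from sorafenib-resistant MHCC97H cells, with 3 libraries in each group. Sorafenib is a multikinase inhibitor given for advanced liver cancer. The sources used here do not give the dose, the way in which resistance was obtained, or whether the drug was present at harvest. The labels do not say that the libraries came from separate cultures, so p-values measure no more than how these libraries varied, and that variation may be technical.

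Keratins are the intermediate filament proteins of epithelial cells. Each filament is built from pairs of a type I (acidic) and a type II (basic) keratin, so that a cell makes members of both types. KRT8 with KRT18 is the pair of simple epithelia and of hepatocytes, KRT7 and KRT19 are added in bile duct cells and in part of liver cancers, and KRT81 and KRT86 belong to the hair keratins. Among the 9 genes, KRT7, KRT8, KRT80, KRT81 and KRT86 are type II and lie on chromosome 12, and KRT10, KRT19 and KRT23 are type I and lie on chromosome 17. KRT18 is type I and lies beside KRT8 on chromosome 12.

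The family is built on one plan, and the end of the rod domain is among its most conserved stretches. The following 21 coding bases are that stretch, shown to let the kinship and the differences of the 9 genes and KRT20 be seen. They are from the GENCODE 29 transcript with the longest coding sequence of each gene, written 5′ to 3′, and capitals mark the 11 bases that all 10 genes share.
KRT8: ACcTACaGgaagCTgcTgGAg
KRT7: ACcTACcGcaagCTgcTgGAg
KRT80: ACcTACaGgaagCTggTgGAg
KRT81: ACcTACaGgcgcCTgcTgGAg
KRT86: ACcTACaGgcgcCTgcTgGAg
KRT18: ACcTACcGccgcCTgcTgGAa
KRT19: ACcTACcGcagcCTgcTcGAg
KRT23: ACgTACcGacggCTccTgGAg
KRT10: ACcTACcGcagcCTgcTaGAa
KRT20: ACtTACcGccgcCTtcTgGAa

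KRT80 was the keratin that differed most clearly between the groups. It rose to 2.97 times its control mean in resistant cells, while the KRT8 and KRT18 pair that supplied most keratin counts did not pass the test. Of the 9 genes, 7 had enough counts to be tested, and 1 was called higher and 0 lower by edgeR's quasi-likelihood test at a Benjamini-Hochberg adjusted p under 0.05. Over all 10804 tested genes 11.7% were called higher and 12.3% lower (24.1% in either direction), so 1 call among 7 (14.3%) is near the background. The median log2 fold change (resistant over control) of the 7 was 0.15, beside -0.01 over all tested genes. Library totals ran from 1913469 to 5345272 counts, the lowest in control replicate 1. Levels are CPM, which scale the counts of a gene to a common library size, with sizes corrected by TMM, a normalization that sets aside the most changed genes, and means are given with the SD over 3 libraries per group.

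KRT80 (Entrez 144501) is a type II keratin of embryonic and differentiating epithelia, and its product is found near desmosomes and in the cell margin. Its gene spans chr12:52168996-52192000 on the minus strand (GENCODE 29, GRCh38, the annotation used for all spans here, matched by symbol). Its level was 120, 234 and 159 CPM in control replicates 1, 2 and 3, and 506, 521 and 495 CPM in resistant replicates 1, 2 and 3. Even the lowest resistant library was above the highest control library, as for 19.2% of all tested genes. The resistant libraries were close together and the control libraries spread. The means were 171 ± 57.8 CPM for control and 507 ± 13.4 CPM for resistant libraries (SD, n = 3 each). The log2 fold change was 1.54 (SE, its standard error, 0.13), and edgeR's test gave it an adjusted p of 2.41e-12. This rested on 2015 counts in control and 6505 in resistant libraries. Genes called higher with at least a 2-fold change made up 1.62% of all tested genes. The call was kept under all 16 alternatives of processing and left-out libraries, with log2 fold changes of 1.37 (without control replicate 1) to 1.84 (without control replicate 2).

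The sequence of KRT80 is well separated from those of its relatives. Of 3800 windows of 60 bases along its transcript, 6 (0.158%) also occur in a transcript of another gene, KRT8 and its pseudogene KRT8P3. Over the coding sequence, KRT80 and KRT8 were identical at 69.6% of aligned bases.

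**Figure D1:**
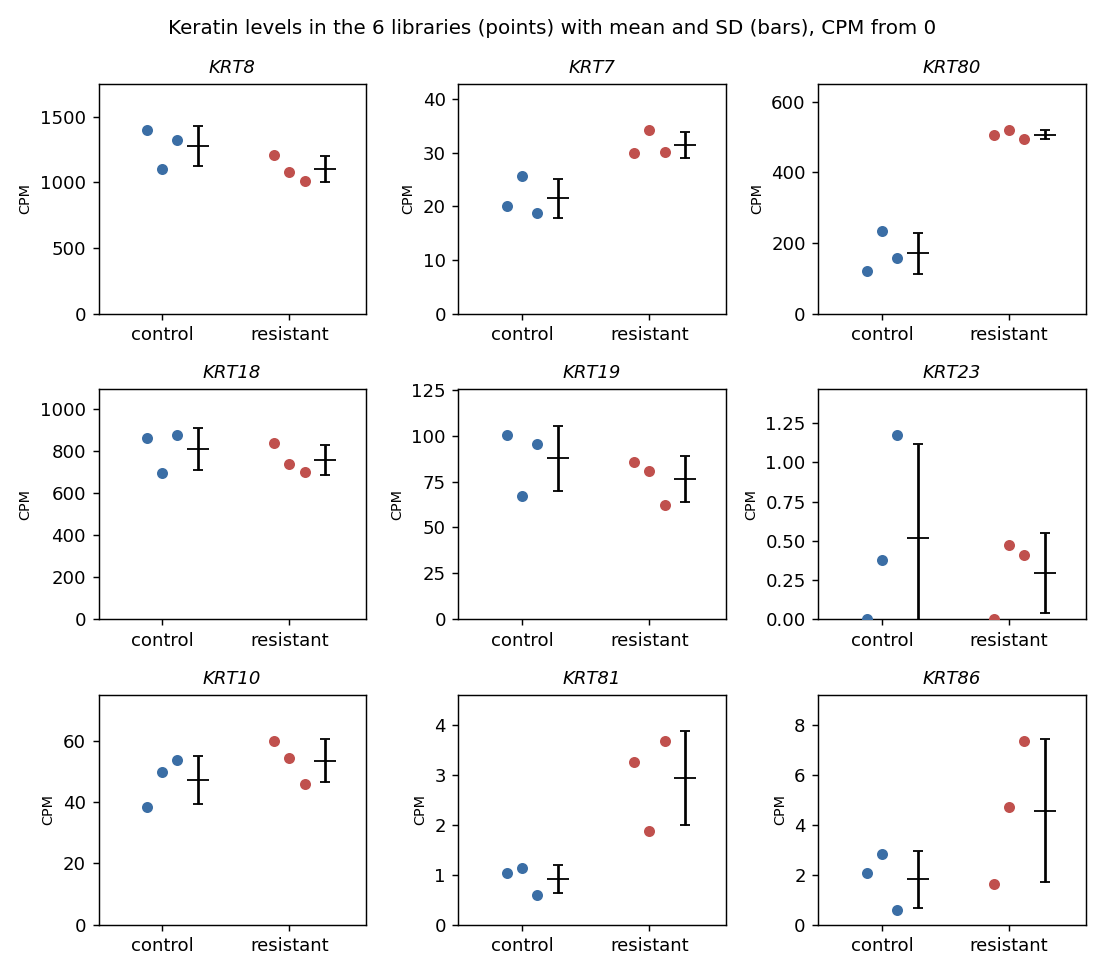
Level of each of the 9 keratins in CPM (vertical axes, from 0) in the 3 control (blue) and 3 resistant (red) libraries, with the mean and SD of each group as a black bar (cut at 0 for KRT23). KRT80 lay at 495 to 521 CPM in resistant libraries and at 120 to 234 CPM in control, whereas KRT8 and KRT18 overlapped between the groups.

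The other type II keratins of simple epithelia, KRT8 and KRT7, did not pass the test. KRT8 (Entrez 3856, chr12:52897187-52949954, minus strand) is the main type II partner in hepatocytes. It had 1401, 1105 and 1323 CPM in control replicates 1 to 3, and 1209, 1079 and 1010 CPM in resistant replicates 1 to 3. The groups overlapped, since control replicate 2 lay below resistant replicate 1. Its control mean was 1276 ± 154 CPM and its resistant mean 1099 ± 101 CPM (SD, n = 3 each), and the log2 fold change of -0.21 (SE 0.09) had an adjusted p of 0.0795 in edgeR (unadjusted 0.0224). KRT8 was called lower under 3 alternatives in edgeR: scaling by library totals alone (adjusted p = 0.0436), without control replicate 2 (0.0189) and without resistant replicate 1 (0.0185). Over all its alternatives the adjusted p ran from 0.0185 to 0.366 and the direction did not change.

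KRT7 (Entrez 3855, chr12:52232520-52252186, plus strand), a keratin of bile ducts and other glandular ducts, was far less abundant. Its level was 20.1, 25.6 and 18.8 CPM in control replicates 1 to 3 and 30.0, 34.3 and 30.1 CPM in resistant replicates 1 to 3. All resistant libraries were above all control libraries, as for 19.2% of all tested genes. The log2 fold change was 0.53 (SE 0.21) with an adjusted p of 0.0593 in edgeR, so that KRT7 did not pass. Without control replicate 2, the highest control library, it did (adjusted p = 0.0376, log2 fold change 0.70). Its adjusted p over all alternatives ran up to 0.186. An antisense gene, KRT7-AS, shares 282 exon bases with KRT7, and the sources used here do not say whether counting used strand.

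Of the type I keratins, KRT18 (Entrez 3875, chr12:52948871-52952901, plus strand), the partner of KRT8, had 861, 693 and 876 CPM in control replicates 1 to 3. In resistant replicates 1 to 3 it had 839, 736 and 698 CPM, within the control range. Its log2 fold change was -0.09 (SE 0.09) with an adjusted p of 0.51 in edgeR. KRT19 (Entrez 3880, chr17:41523617-41528308, minus strand), the smallest keratin and a marker of bile duct and liver progenitor cells, had 100.3, 67.2 and 95.3 CPM in control and 85.8, 80.9 and 62.0 CPM in resistant replicates 1 to 3. Its groups also overlapped, and the log2 fold change was -0.18 (SE 0.15, adjusted p = 0.401 in edgeR). KRT8, KRT18 and KRT19 shared their order within each group at its low end: control replicate 2 was the lowest control library and resistant replicate 3 the lowest resistant library for all 3 genes. KRT80 and KRT7, in contrast, were highest among control libraries in control replicate 2. Control replicate 2 (5345272 counts) and resistant replicate 3 (4961907 counts) were also the deepest libraries of their groups. The part of depth in these orders was not tested.

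KRT10 (Entrez 3858, chr17:40818117-40822595, minus strand), a keratin of the upper layers of the epidermis, was nonetheless measured in every library. It had 38.6, 49.7 and 53.7 CPM in control and 60.1, 54.5 and 46.0 CPM in resistant replicates 1 to 3. The groups overlapped, with a log2 fold change of 0.15 (SE 0.16, adjusted p = 0.538 in edgeR). KRT23 (Entrez 25984, chr17:40922696-40937634, minus strand), a type I keratin, had 0, 2 and 4 counts in control and 0, 2 and 2 counts in resistant replicates 1 to 3. It was too low to be tested. The 0 in control replicate 1 allows up to 1.54 CPM and that in resistant replicate 1 up to 0.812 CPM (3 counts, counting error only), so no difference was detectable at this depth. Most low counts were even, as given with the processing, so these bounds may be too low.

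The hair keratins KRT81 (Entrez 3887, chr12:52285913-52291534, minus strand) and KRT86 (Entrez 3892, chr12:52249300-52309163, plus strand) were measured at the edge of detection. KRT81 had 2, 6 and 2 counts in control and 12, 8 and 18 counts in resistant replicates 1 to 3, and was too low for the filter. All resistant libraries were above all control libraries, from 0.587 to 1.13 CPM in control and from 1.88 to 3.68 CPM in resistant cells. Among all tested genes, 19.2% had their libraries apart in this direction. With no filter on low counts, its log2 fold change was 1.65 (SE 0.97) with an adjusted p of 0.305 in edgeR. KRT86 had 4, 15 and 2 counts in control and 6, 20 and 36 counts in resistant replicates 1 to 3, and the groups overlapped. Its log2 fold change of 1.29 (SE 0.65) had an adjusted p of 0.149 in edgeR, and ran from 0.77 without resistant replicate 3 to 1.94 without control replicate 2.

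The counts of KRT81 and KRT86 are uncertain because the pair is nearly identical. Their coding sequences matched at 94.2% of 1454 aligned bases, beside 93.4% for KRT81 and KRT83, and 672 of the 60-base windows of the KRT81 transcript (35.9%) occur unchanged in KRT86. The longest shared run is 605 coding bases, starting at coding base 61 in both. Its first 150 bases, shown because no read inside them can be given to 1 of the 2 genes, are, 5′ to 3′ from GENCODE 29 and with no base in capitals:
KRT81 and KRT86: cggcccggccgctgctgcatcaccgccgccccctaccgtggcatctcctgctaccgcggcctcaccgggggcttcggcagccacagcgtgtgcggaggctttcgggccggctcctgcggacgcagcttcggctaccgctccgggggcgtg

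KRT8 and KRT18 carry an uncertainty of the same kind. GENCODE 29 lists 50 genes named as KRT8 pseudogenes and 68 named as KRT18 pseudogenes, and 31.6% of the 60-base windows of KRT8 and 19.1% of those of KRT18 occur in an annotated pseudogene. The 2 genes also overlap on opposite strands, with 525 exon bases in common. The sources used here do not say how reads with several matching places were counted.

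**Figure D2:**
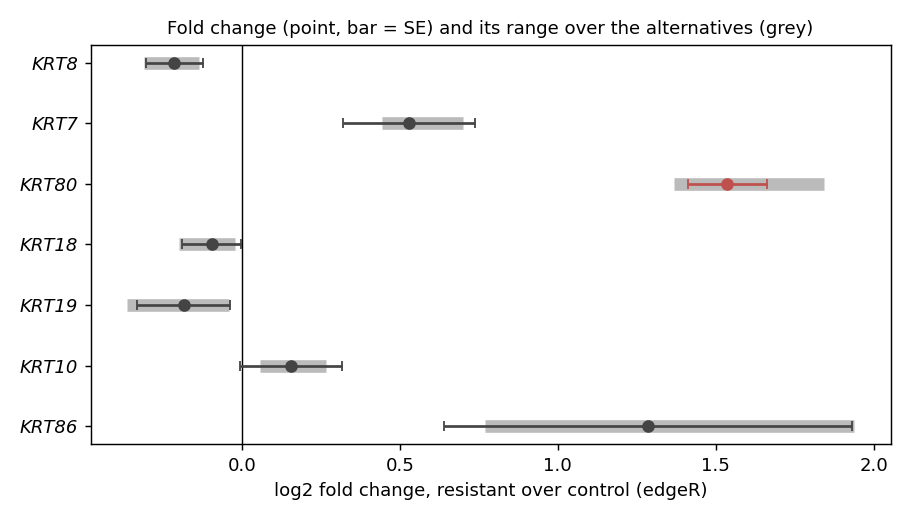
Log2 fold change of the 7 tested keratins, resistant over control, from edgeR (point, with its SE as a bar), and the range of that value over the 16 alternatives (grey, 15 for KRT86); red marks the called gene. KRT80 lay at 1.54, and the alternatives moved no gene across 0.

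The levels of different keratins were set in order per kilobase of transcript (CPM per kb, over the median length of a gene's coding transcripts in GENCODE 29). KRT8 was first with a mean of 631 CPM per kb over the 6 libraries (range 537 to 744), and KRT18 had 502 (range 444 to 561). KRT20, a type I keratin of intestinal and urothelial lining that is not among the 9, lay between them at 539 (range 459 to 604). These ranges overlap, and KRT8 was above KRT20 in all 6 libraries while KRT20 was above KRT18 in 4 of 6. With the longest transcript in place of the median, the mean of KRT8 was 487 CPM per kb, under that of KRT20, and KRT20 was the higher in 4 of 6 libraries. The control mean of KRT20 was 893 ± 82.1 CPM and its resistant mean 979.9 ± 63.7 CPM (SD, n = 3 each), a log2 fold change of 0.13 (SE 0.09, adjusted p = 0.292 in edgeR).

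Below these 3 genes came a gap, and then KRT80 and KRT19. KRT80 had 30.9, 60.2 and 41.0 CPM per kb in control replicates 1 to 3 and 130, 135 and 128 in resistant replicates 1 to 3. KRT19 had 72.1, 48.4 and 68.6 CPM per kb in control and 61.7, 58.2 and 44.6 in resistant replicates 1 to 3. KRT80 thus lay below KRT19 in control replicates 1 and 3 and above it in control replicate 2 and in every resistant library. KRT7 (24.6 CPM per kb over the 6 libraries) and KRT10 (23.7) followed and overlapped, and with the longest transcript KRT7 was at 15.1, under KRT10 in all 6 libraries. The median length used for KRT7, 1076 bases, is shorter than its longest coding sequence of 1407 bases, so its place beside KRT10 depends on the length used. KRT86, KRT81 and KRT23 had means of 1.48, 1.12 and 0.233 CPM per kb.

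**Figure D3:**
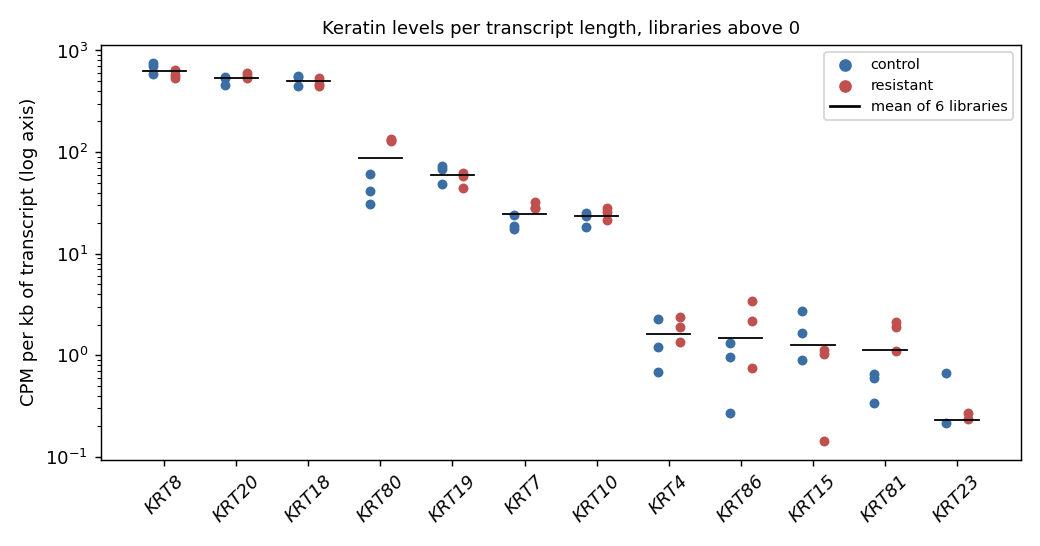
CPM per kb of transcript (log axis) of the 9 keratins and of KRT20, KRT4 and KRT15 in each control (blue) and resistant (red) library, ordered by the mean over 6 libraries (line); the 2 libraries with 0 counts of KRT23 are left out. KRT8, KRT20 and KRT18 lay between 444 and 744, and KRT80 moved from 30.9 to 60.2 in control to 128 to 135 in resistant libraries.

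KRT80 made up a larger share of the keratin counts in resistant than in control libraries. Summed over the 9 genes, keratins took 0.216 to 0.259% of the counts in control and 0.232 to 0.270% in resistant libraries, so the groups overlapped in the total. KRT80 made up 4.71, 10.7 and 6.29% of the counts of the 9 genes in control replicates 1 to 3 and 18.5, 20.7 and 21.03% in resistant replicates 1 to 3. The share of KRT8 was 50.7 to 55.1% in control and 42.9 to 44.2% in resistant libraries. Shares of one sum cannot move independently, so the lower share of KRT8 holds the higher share of KRT80 in it. The ratio of KRT18 to KRT8 CPM does not depend on KRT80 or on the scaling. It was 0.614, 0.628 and 0.662 in control and 0.694, 0.682 and 0.691 in resistant replicates 1 to 3, so each resistant library lay above each control library. The mean log2 ratio was -0.66 ± 0.06 in control and -0.54 ± 0.01 in resistant cells (SD, n = 3 each), a difference of 0.12. The log2 ratio of the summed type I to the summed type II counts of the 9 genes went the other way, and its type II sum holds KRT80. It was -0.64 ± 0.10 in control and -0.89 ± 0.06 in resistant libraries (SD, n = 3 each), with each resistant library below each control library. Its type I sum leaves out KRT20, which had 9755 counts in control and 12503 in resistant libraries, beside 8341 and 9642 for KRT18. The ratio therefore holds for the 9 genes and does not give the balance of all keratins in these cells. Ratios of chosen genes were given no test.

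Of the 46 other keratins, 5 had no count in any library, and 3 were tested, KRT20, KRT15 and KRT4. None of them was called by edgeR, DESeq2 or limma-voom, and 0 had an unadjusted p under 0.05 in edgeR. KRT15, a keratin of basal epithelial cells, had a control mean of 6.61 ± 3.46 and a resistant mean of 2.89 ± 2.04 CPM (SD, n = 3 each; adjusted p = 0.154 in edgeR), and KRT4, of inner squamous linings, 3.56 ± 2.08 and 4.85 ± 1.30 CPM (adjusted p = 0.666 in edgeR). The other 43 had at most 43 counts over the 6 libraries together.

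On chromosome 12 KRT80 was the one called gene of its neighbourhood. None of the 21 tested genes nearest to KRT80 or to KRT8 and KRT18 (10 on each side of either, 19 of them in both sets, keratins of the 9 left out) was called by edgeR, DESeq2 or limma-voom, and 1 had an unadjusted p under 0.05 in edgeR. Over all 10804 tested genes 24.1% were called and 3792 had an unadjusted p under 0.05. The median log2 fold change of the 21 was 0.09. The set around KRT80 was chosen after its change was seen. Around the type I keratins on chromosome 17, 3 of 20 neighbours were called higher and 2 lower, a share near the background. They were NR1D1, EIF1 and NT5C3B (higher) and TOP2A and IGFBP4 (lower). Among these, edgeR lost the NR1D1 call without control replicates 1 (adjusted p = 0.121) or 3 (0.0818) or resistant replicate 2 (0.10), and the IGFBP4 call without any single library other than control replicate 1 (0.0602 to 0.258), with the replicate block (0.0594) and with either other filter (0.0707 and 0.078).

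**Figure D4:**
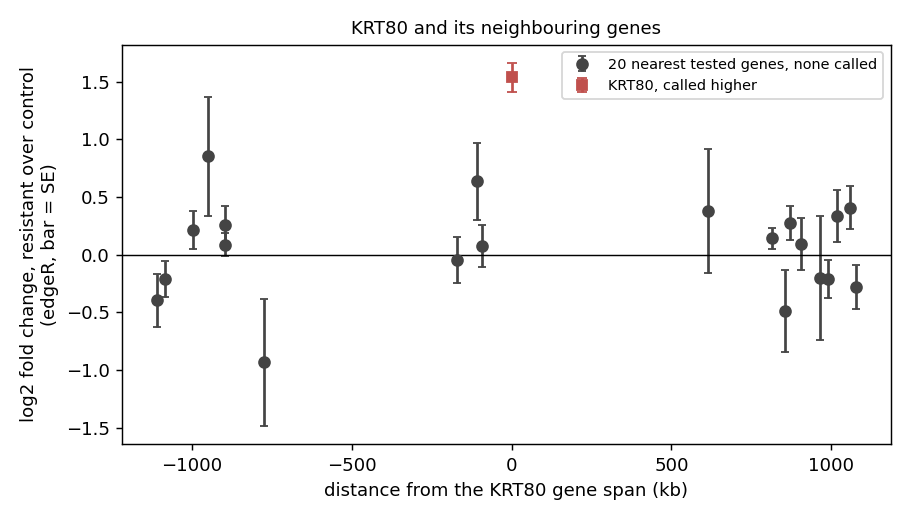
Log2 fold change (edgeR, bar = SE) of KRT80 (red square) and of 20 tested neighbours (black) against their distance from the KRT80 gene span in kb. The neighbours are the 10 nearest tested genes on each side, with KRT7, KRT8, KRT18 and KRT86 left out. Of these keratins, KRT7 (log2 fold change 0.53) and KRT86 (1.29) lie nearer to KRT80 than any gene shown. KRT8 had -0.21 and KRT18 -0.09, and none of these keratins was called. KRT80 lay at 1.54, above all 20 neighbours, none of which was called.

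Of 10797 tested genes outside the 9, the 3 whose log2 CPM followed that of KRT80 most closely over the 6 libraries were IQGAP1, CD59 and UNC13D, with a Pearson correlation of 0.998, 0.997 and 0.997. IQGAP1 encodes a scaffold of the cell cortex, CD59 an inhibitor of complement, and UNC13D a factor of granule release. The 6 points share the 2 groups, the libraries and the scaling, and 358 genes had a correlation above 0.95. IQGAP1 had 609, 736 and 667 CPM in control replicates 1 to 3 and 988, 979 and 983 CPM in resistant replicates 1 to 3. Its likeness to KRT80 in the spread of the libraries follows from its choice by correlation.

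Keratin filaments are tied to the membrane by plakins at desmosomes, which join cells to each other, and at hemidesmosomes, which join cells to the matrix. Of 20 genes of these junctions 17 were tested, and 6 were called higher and 1 lower, with a median log2 fold change of 0.09. The called share of 41.2% stands beside 24.1% over all tested genes. The plakin PPL rose from 16.6 ± 4.87 to 42.3 ± 2.27 CPM (SD, n = 3 each; log2 fold change 1.29, SE 0.21, adjusted p = 8.96e-06 in edgeR). EPPK1, a plakin that binds KRT8 and KRT18 filaments, rose from 20.03 ± 3.14 to 44.2 ± 9.06 CPM (log2 fold change 1.12, SE 0.20). The tetraspanin CD151, found in hemidesmosomes, rose from 330 ± 27.8 to 490.02 ± 10.2 CPM. Also called higher in edgeR were the desmosome genes DSC2 (log2 fold change 0.64, adjusted p = 0.00121), DSG2 (0.36, 0.00614) and PKP2 (0.59, 0.0477). They are named to complete the 6, and the groups overlapped for DSG2. Other desmosome genes, such as JUP and PKP3, were not called. The gene that fell was ITGB4, the hemidesmosome integrin that anchors keratins through plectin, from 355 ± 19.2 to 217 ± 5.01 CPM (log2 fold change -0.71, SE 0.09, adjusted p = 2.27e-07 in edgeR). Desmoplakin, DSP, and plectin, PLEC, the main linkers, had log2 fold changes of 0.06 (adjusted p = 0.735 in edgeR) and 0.05 (0.725); both were chosen after their values were seen.

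**Figure D5:**
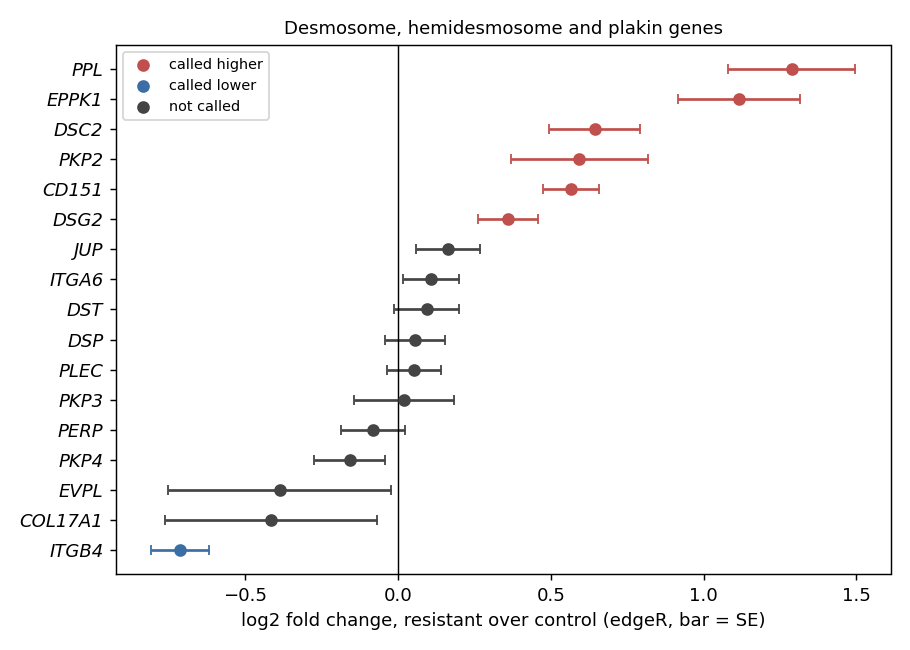
Log2 fold change, resistant over control (edgeR, bar = SE), of the 17 tested desmosome, hemidesmosome and plakin genes, with red for called higher, blue for called lower and black for not called. PPL and EPPK1 lay highest at 1.29 and 1.12, and ITGB4 lowest at -0.71.

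Among 20 genes whose products bind, chaperone or cleave keratins, all tested, 6 were called higher and 3 lower (45% called, beside 24.1% over all tested genes), with a median log2 fold change of 0.17. YWHAZ and SFN encode adaptor proteins of the family that binds phosphorylated KRT18. YWHAZ rose from 1951 ± 216 to 2800 ± 178 CPM (log2 fold change 0.52, SE 0.08) and SFN from 415 ± 22.0 to 545 ± 76.5 CPM (0.39, SE 0.10). The small heat shock protein gene HSPB1 fell from 214 ± 21.7 to 151 ± 1.82 CPM (-0.50, SE 0.10), and MAPK14, whose kinase phosphorylates KRT8, from 58.0 ± 4.99 to 38.1 ± 1.22 CPM. TGM2, which cross-links keratins, fell from 84.7 ± 18.3 to 56.5 ± 6.16 CPM, a call that edgeR lost without control replicate 3 (adjusted p = 0.113). Over these 5 genes the adjusted p in edgeR ran from 7.63e-06 for YWHAZ to 0.00425 for MAPK14.

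Other intermediate filament genes showed 3 called higher and 0 lower among 8 tested of 17 (37.5% called, beside 24.1% over all tested genes), with a median log2 fold change of 0.12. IFFO2, a gene of an intermediate filament family orphan, rose from 3.65 ± 1.82 to 18.2 ± 2.79 CPM (SD, n = 3 each; log2 fold change 2.19, SE 0.36, adjusted p = 1.28e-05 in edgeR), and this call was kept under all 16 alternatives. The related IFFO1 had a log2 fold change of 0.64 (adjusted p = 0.0344 in edgeR), which missed the threshold in DESeq2 (0.0588), in limma-voom (0.0519) and, in edgeR, when any of control replicates 1 (0.127) and 3 (0.139) or resistant replicates 2 (0.153) and 3 (0.0565) was left out. VIM, vimentin, the filament of mesenchymal cells, had 14.4, 13.7 and 14.7 CPM in control and 24.9, 11.8 and 55.6 CPM in resistant replicates 1 to 3. Its call (log2 fold change 1.12, adjusted p = 0.00628 in edgeR) rested on resistant replicate 3, without which the log2 fold change was 0.36 (0.471), and it missed the threshold in DESeq2 (0.213) and in limma-voom (0.0519). The same library had the highest summed levels of endothelial and of fibroblast genes, given with the cell type markers below. The part of such cells in the VIM value was not tested.

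Of 22 transcription factor genes known from keratin and other epithelial promoters, 18 were tested, and 2 were called higher and 1 lower (16.7% called, beside 24.1% over all tested genes). KLF5, an epithelial Krüppel-like factor, rose from 164 ± 11.6 to 229 ± 15.2 CPM (log2 fold change 0.48, SE 0.10), and the repressor SNAI1 from 12.6 ± 7.10 to 26.6 ± 4.09 CPM (0.98, SE 0.28). FOXA1, a pioneer factor of liver and other endoderm, fell from 30.8 ± 9.58 to 16.7 ± 3.54 CPM (-0.83, SE 0.24, adjusted p = 0.00926 in edgeR). In edgeR its call was lost without control replicate 1 (log2 fold change -0.59, adjusted p = 0.0981) or resistant replicate 2 (-0.68, adjusted p = 0.069).

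The labelled cell type was set against its markers. Of 10 hepatocyte genes 7 were tested, and 0 were called higher and 3 lower (42.9% called, beside 24.1% over all tested genes). HNF4A was the most abundant (control 39.8 ± 1.89 CPM, resistant 41.4 ± 4.74 CPM, SD, n = 3 each), and ALB fell from 17.3 ± 3.75 to 5.53 ± 3.502 CPM, APOB from 23.2 ± 5.79 to 8.08 ± 5.01 CPM and SERPINA1 from 8.03 ± 0.75 to 2.98 ± 0.987 CPM. In edgeR the SERPINA1 call was lost without control replicates 2 or 3 or resistant replicates 2 or 3 (adjusted p = 0.0543 to 0.114). The hepatocyte genes too low to be tested were APOA1 (1 count in control and 2 in resistant libraries together), TTR (6 and 4) and TAT (35 and 12). AFP was tested on 30 and 42 counts, so these hepatocyte genes were low in both groups. Of 12 biliary and progenitor genes other than keratins 6 were tested, and 0 were called higher and 2 lower (33.3% called), with a median log2 fold change of -0.08. Those called were SPP1 (815 ± 24.7 to 426 ± 12.05 CPM) and ANXA4 (log2 fold change -0.30, lost under 9 of 16 alternatives). The summed level of the 12 genes was 1362 to 1492 CPM in control and 988 to 1009 CPM in resistant libraries, a difference that was mostly that of SPP1. None of 12 keratinocyte genes had enough counts to be tested, and 4 were at 0 in every library. Their summed level was 5.28 to 8.23 CPM in control and 4.50 to 5.17 CPM in resistant libraries. Levels this low are near those of a few counts, and the part of such cells in the KRT80 value was not tested. The most abundant, TP63, had 2.91 and 1.49 CPM. The summed fibroblast, endothelial and leukocyte markers lay between 11.8 and 68.2 CPM in all libraries except resistant replicate 3, where the endothelial genes had 135 CPM. The most abundant of each were LUM, KDR and CD79A, none of them called in edgeR, although KDR was without control replicate 2 (adjusted p = 0.00898 in edgeR). The high endothelial sum in resistant replicate 3 came with VWF at 26.2 CPM (0 to 1.76 in the other libraries) and CDH5 at 19.2 CPM (0 to 3.09), both named after their values were seen, while KDR had 42.6 CPM there. PECAM1 had 41.7 CPM there, beside 6.50 and 12.9 CPM in resistant replicates 1 and 2. In control replicates 1 to 3 PECAM1 had 43.2, 30.9 and 24.9 CPM. The fibroblast sum was also highest in resistant replicate 3, at 43.0 CPM beside 11.8 to 37.8 CPM in the other libraries. In resistant replicate 3 KRT80 had 495 CPM, the lowest of the resistant group, and without this library the log2 fold change of KRT80 was 1.57.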

How the data were processed

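For each gene symbol the authors deposited an unnormalized whole-number count, 1 column per library. Trimmomatic, HISAT2 and Bowtie2 are named in the submitters' processing notes, with neither version nor role. The sources used here do not give the read counter, build, annotation, use of strand or RNA selection. Single-library files equalled the table of the whole series, 27 symbols that had become dates were renamed from the Entrez ID, and 81.8 to 88.5% of counts from 1 to 20 were even, so counting errors based on single counts may be too small. Replicates differed by more than sampling noise (chi-square per degree of freedom 1.78 to 2.86 on halved counts).

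Genes passing filterByExpr (10804) were fitted in edgeR 4.0.16 (R 4.3.3) with TMM scaling, group as the single term, its quasi-likelihood F test and Benjamini-Hochberg adjustment over all tested genes. The SE is the size of the log2 fold change over the square root of F. The edgeR steps were tested on simulated counts, drawn with the same relative spread for all genes and without the excess of even counts. That test does not vouch for the calls made on these data. The keratins and all lists were chosen with earlier results of these data known. The genes named were the 9 keratins, the other tested keratins, up to 3 called genes per list and direction with the smallest p, the most abundant marker per cell type, called neighbours, and the 3 genes most like the called keratin with the smallest p. One gene that this rule names is not reported here. Alternatives were 3 other scalings, DESeq2 1.42.0, limma-voom (limma 3.58.1), 2 filters, a block for the replicate number, a threshold of 0.01, halved counts and leaving out each library. Sequences, lengths and spans were from GENCODE 29. RefSeq promoters (GRCh38.p14) matched 2 of the 9 genes and were not used.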

Additional observations from a re-analysis of the deposited data

How the results depend on the processing

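The number of called genes was 2601, and 1651 at an adjusted p of 0.01. Leaving out 1 library gave 2001 to 2261 called genes, and 1 to 3 called keratins in place of 1. Scaling by library totals alone called 2 keratins, KRT80 and KRT8. The tested keratins gave 111 values under the alternatives, of which 107 kept direction and side of the threshold, 4 (KRT7 once, KRT8 3 times) newly passed, and 0 turned. Called neighbours of the keratins were 5, with 3 at an adjusted p of 0.01 and 3 to 5 without 1 library. Called genes among other intermediate filaments were 3, with 1 in DESeq2, 1 in limma-voom and 1 to 3 without 1 library. The log2 fold change of HNF4A, 0.05, ran from -0.0090 (without resistant replicate 2) to 0.151 (without resistant replicate 3). The longest transcript moved the level of KRT8 from 631 to 487 CPM per kb and that of KRT7 from 24.6 to 15.1. This follows from the length divided by, which went from 1882 to 2437 bases for KRT8 and from 1076 to 1754 for KRT7. Why calls and fold changes moved under the other alternatives was not tested. Same-numbered libraries did not deviate together (correlations of -0.015, 0.033 and -0.006), and not every library correlated best with its own number. With 3 libraries per group, these values do not decide whether the shared number marks a batch or a pairing. With the replicate block 2518 genes and 1 keratin were called. Halved counts left KRT86, KRT15 and KRT4 untested. Depth limits KRT23, KRT81 and KRT86, and the group of 3 limits all of them.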

Other observations

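Among keratins too low to be tested, KRT75, a type II keratin of the hair follicle, had 0, 2 and 0 counts in control and 8, 7 and 10 counts in resistant replicates 1 to 3, so the groups did not overlap. Among all tested genes, 19.2% had every resistant library above every control library. KRT75 was chosen after its values were seen. Of 93 genes of keratin-associated proteins, the matrix proteins of hair, 56 had no count in any library, and the highest of the other 37 had 20 counts over the 6 libraries together. None of the 93 passed the filter on low counts.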
